A study of Mus musculus with 10 samples.

Results

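The genes described here are 31 genes of cholesterol synthesis, its regulation, uptake, efflux and storage, taken as a list of gene symbols and compared between macrophages of lung metastases and macrophages of normal lung. All 31 were found among the 24538 genes of the count files, and all 31 passed the filter on low values and were among the 11571 genes tested. They comprised 19 synthesis genes, 4 regulators of the transcription factor SREBP2, 2 genes of uptake and transport, 4 genes of efflux and its LXR receptors, and 2 genes that make cholesterol esters or an oxysterol.

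RNA was sequenced from 5 libraries of metastasis-associated macrophages (MAMs) and 5 libraries of resident alveolar macrophages (RAMs), with 55391447 to 87523247 counts on genes per MAM library and 50746305 to 72150650 per RAM library. Metastases were seeded by tail vein injection of E0771-LG, 1 mouse mammary tumor line, into syngeneic C57BL6/J females aged 6 to 8 weeks, and each MAM library pooled metastases dissected from 2 to 4 mice. RAMs came from normal lungs, and the labels of both groups give a wild type genotype and an age of 8 to 10 weeks. Cells of both groups were sorted as CD45+, F4/80+, LY6C-, MRC1+ and of high forward scatter. MAMs were in addition CD11B+CD11C- and RAMs CD11B-CD11C+, and tissues of both groups were digested with the transcription inhibitors alpha-amanitin and actinomycin D. The sorted subset and the state of the lung changed together between the groups, so macrophage type and metastasis cannot be told apart. The labels do not say how many mice gave each RAM library, the study's methods describe a sample as an individual mouse or a pool, and the p-values measure the spread between these libraries.

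Cells make cholesterol from acetyl-CoA. The mevalonate steps build farnesyl diphosphate, which feeds either squalene and the sterol ring or the isoprenoids attached to proteins, and the later steps turn squalene into cholesterol. When membrane cholesterol is low, SCAP carries SREBP2 to the Golgi, where its active part is released and switches on the synthesis genes, while INSIG proteins hold the complex back. When sterols are plentiful, oxysterols activate the LXR receptors, which switch on the efflux transporters ABCA1 and ABCG1. Alveolar macrophages take up and clear surfactant, which is rich in lipid, and export of its cholesterol is one of their known functions.

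Promoters of sterol synthesis genes are known for sterol regulatory elements, which bind SREBP2, and for CCAAT boxes, which bind the factor NF-Y. Promoters of 5 synthesis genes with large differences are printed to show which of these letters each one held. By exact match, Hmgcs1 held both motifs, and Idi1, Dhcr7 and Lss held CCAAT alone. Acat2, with the largest difference of the synthesis genes, held neither. Sc5d is printed as a synthesis gene that did not pass the test, and Abca1 as an efflux gene. Promoter sequences of 300 bases, from 250 before to 50 after the start, were taken from RefSeq on GRCm38.p6 and matched 26 of the 31 genes. Each is written 5′ to 3′ on the strand of its gene, with CCAAT or its reverse complement ATTGG in capitals, and with the sterol regulatory element core in capitals where it was found. The Acat2 promoter lies at chr17:12960676-12960975 (-), Hmgcs1 at chr13:119690101-119690400 (+), Idi1 at chr13:8885356-8885655 (+), Dhcr7 at chr7:143829964-143830263 (+), Lss at chr10:76531355-76531654 (+), Sc5d at chr9:42264251-42264550 (-) and Abca1 at chr4:53159846-53160145 (-). Dhcr7 has 3 promoters in RefSeq, and the one with CCAAT boxes is shown.
Acat2: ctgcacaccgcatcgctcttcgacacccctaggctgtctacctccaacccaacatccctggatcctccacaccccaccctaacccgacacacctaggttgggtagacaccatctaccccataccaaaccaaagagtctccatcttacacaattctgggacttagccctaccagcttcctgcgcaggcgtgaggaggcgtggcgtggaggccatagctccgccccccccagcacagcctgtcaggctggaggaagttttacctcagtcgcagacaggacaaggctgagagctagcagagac
Hmgcs1: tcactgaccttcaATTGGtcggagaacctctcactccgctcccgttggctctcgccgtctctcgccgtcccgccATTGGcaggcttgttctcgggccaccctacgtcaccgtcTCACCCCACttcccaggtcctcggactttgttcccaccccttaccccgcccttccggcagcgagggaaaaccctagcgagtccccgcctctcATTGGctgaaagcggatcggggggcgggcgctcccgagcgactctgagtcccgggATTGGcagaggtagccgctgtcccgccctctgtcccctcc
Idi1: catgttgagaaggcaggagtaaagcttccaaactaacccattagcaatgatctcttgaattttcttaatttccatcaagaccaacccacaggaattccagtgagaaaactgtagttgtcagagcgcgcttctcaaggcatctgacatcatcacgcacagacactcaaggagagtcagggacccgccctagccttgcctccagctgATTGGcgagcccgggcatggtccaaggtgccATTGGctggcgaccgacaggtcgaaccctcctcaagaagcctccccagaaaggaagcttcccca
Dhcr7: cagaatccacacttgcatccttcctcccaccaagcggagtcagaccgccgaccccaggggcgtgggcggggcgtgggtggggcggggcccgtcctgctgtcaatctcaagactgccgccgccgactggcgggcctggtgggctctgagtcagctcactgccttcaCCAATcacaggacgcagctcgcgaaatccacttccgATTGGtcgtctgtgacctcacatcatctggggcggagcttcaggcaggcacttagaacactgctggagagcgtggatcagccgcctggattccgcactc
Lss: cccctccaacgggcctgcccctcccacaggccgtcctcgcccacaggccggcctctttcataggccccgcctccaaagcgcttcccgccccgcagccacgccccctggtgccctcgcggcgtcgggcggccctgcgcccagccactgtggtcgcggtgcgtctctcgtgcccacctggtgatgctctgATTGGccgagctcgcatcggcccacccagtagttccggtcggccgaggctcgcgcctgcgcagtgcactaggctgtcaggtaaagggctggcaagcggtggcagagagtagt
Sc5d: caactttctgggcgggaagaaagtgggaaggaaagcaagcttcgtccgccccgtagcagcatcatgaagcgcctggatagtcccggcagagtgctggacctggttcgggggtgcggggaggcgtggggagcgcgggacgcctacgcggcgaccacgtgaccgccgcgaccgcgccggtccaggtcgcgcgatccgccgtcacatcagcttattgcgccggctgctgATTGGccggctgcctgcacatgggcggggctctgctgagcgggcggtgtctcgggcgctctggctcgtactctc
Abca1: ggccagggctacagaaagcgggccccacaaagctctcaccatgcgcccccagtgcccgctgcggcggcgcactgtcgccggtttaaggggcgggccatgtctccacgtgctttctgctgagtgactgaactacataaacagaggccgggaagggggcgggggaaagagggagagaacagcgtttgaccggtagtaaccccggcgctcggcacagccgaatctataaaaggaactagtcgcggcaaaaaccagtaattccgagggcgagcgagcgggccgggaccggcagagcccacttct

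The Hmgcs1 promoter held TCACCCCAC at position -137, with the start counted as 1, and 4 CCAAT boxes on the minus strand, at -237, -176, -45 and 11. Idi1 held boxes at -45 and -14, Dhcr7 at -85 and -49, Lss at -62 and Sc5d at -24. The printed Acat2 and Abca1 promoters held neither motif. Of the 16 synthesis genes with a promoter sequence, 15 held CCAAT on either strand (93.8%), against 41.1% of 27025 genes with a promoter and 42.8% of the 9016 of them that were tested. The one without was Acat2. Of the 10 other genes with a promoter sequence, 5 held it, which were Srebf2, Insig1, Insig2, Mylip and Soat1. The sterol regulatory element core TCACNCCAC was found in 1 of the 16 (6.25%), Hmgcs1, against 1.44% of all genes. The Sp1 box GGGCGG was found in 14 of 16 (87.5%), against 38.2% of all genes and 68.1% of those tested, but in the last 100 bases before the start and the 50 after it the share was 50% against 58.6% of those tested, so the order turned. The LXR direct repeat, searched by its exact consensus, was found in none of the 26 genes and in 0.0148% of all genes. It was also found in none of the 9016 tested genes with a promoter, so its absence does not set the 26 genes apart. The sterol core was likewise searched by its exact letters. Repeats and sterol regulatory elements that differ from these letters were not searched, so a miss does not show that a promoter lacks one. All motifs were searched on both strands, and none of them contains another. A match describes letters in this window and not a bound site, and CCAAT was also in the promoters of Mvk, Pmvk, Ggps1, Tm7sf2, Ebp and Sc5d, which did not pass the test of expression.

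Most synthesis genes were lower in MAMs. Of the 19 synthesis genes, 13 were called lower, none was called higher and 6 did not pass the test, where a call means that the p of edgeR's quasi-likelihood test, adjusted over all 11571 genes, was under 0.05. Of all genes tested, 27.3% were called lower and 28.9% higher. By the study's criterion of an adjusted p under 0.05 and a fold change over 2, 11 of the 19 were lower, against 15.1% of all genes. In CPM, defined below, the 5 libraries of MAMs lay below the 5 of RAMs without overlap for 11 of the 19, against 21.2% of all genes tested. The median log2 fold change (MAMs against RAMs) was -1.16 over the 19 genes and -0.02 over all genes tested. In bulk samples, fewer cells of a type and less RNA per cell cannot be told apart. Differences are given on the log2 scale with their standard error (SE), and rose and fell describe MAMs relative to RAMs. Levels are given as CPM, counts scaled to a common library total after TMM normalization, and only FPKM, which also divides by transcript length, is used to compare one gene with another.

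**Figure D1:**
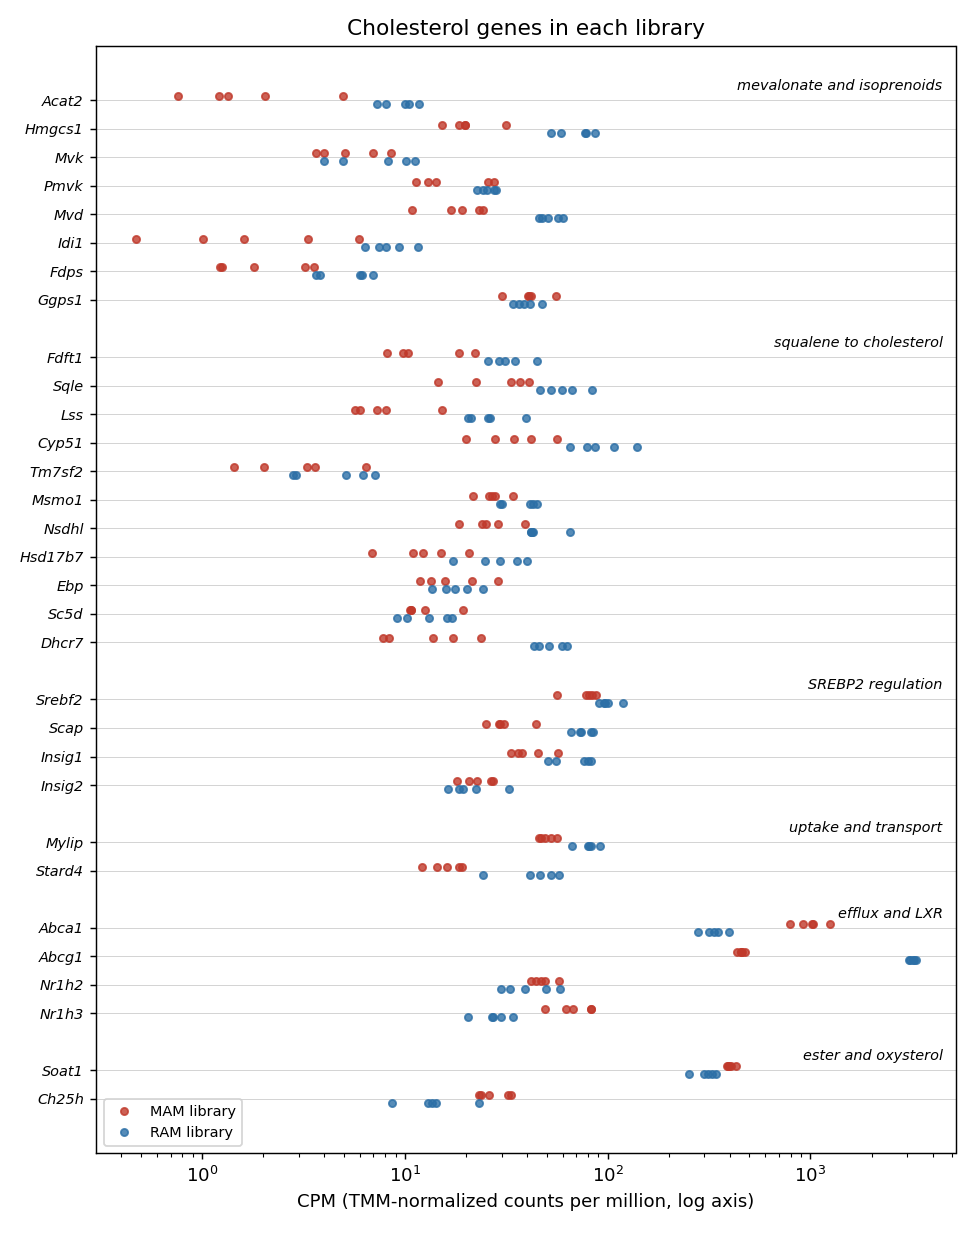
Level of each of the 31 genes in each of the 10 libraries, as CPM on a log axis, grouped by role. Each point is 1 library, and the MAM points of 11 of the 19 synthesis genes lie wholly to the left of the RAM points, while those of Abca1, Nr1h3, Soat1 and Ch25h lie wholly to the right.

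The mevalonate and isoprenoid steps held 8 genes, of which 5 were called lower, all 5 with a fold change over 2. Their median log2 fold change was -1.37. Over all genes tested, 27.3% were called lower and 15.1% also had a fold change over 2. Acat2, the acetoacetyl-CoA thiolase that opens the pathway (chr17:12942890-12960747 on GRCm38, minus strand), had 4.96, 1.35, 1.21, 0.760 and 2.05 CPM in MAM libraries 1 to 5 and 7.33, 11.8, 10.5, 10.0 and 8.08 CPM in RAM libraries 1 to 5. No MAM library reached a RAM library, and MAM 1 was the highest of its group. Acat2 fell by 2.21 on the log2 scale (SE 0.457, adjusted p = 7.33e-04). Acat2 passed the filter in RAMs only, with a mean FPKM of 0.944 in MAMs and 4.57 in RAMs, so the filter favoured a difference. Of its 100-base transcript windows, 28.9% also occur in other genes, chiefly Acat3, with which reads could be shared.

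Hmgcs1, the HMG-CoA synthase of the next step (chr13:119690379-119708260, plus strand), had 31.5, 19.9, 18.5, 15.2 and 19.8 CPM in MAM libraries 1 to 5 and 52.4, 78.6, 86.2, 77.6 and 59.0 CPM in RAM libraries 1 to 5. All MAM libraries were lower than all RAM libraries, with a gap between MAM 1 and RAM 1, the nearest libraries. Hmgcs1 fell by 1.75 on the log2 scale (SE 0.194, adjusted p = 1.66e-06). The printed Hmgcs1 promoter was the only one among 16 synthesis genes with an exact match to the sterol regulatory element core.

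Idi1, the isomerase of the isoprenoid building blocks (chr13:8885501-8892451, plus strand), had 3.33, 5.94, 1.01, 0.470 and 1.61 CPM in MAMs and 6.37, 9.32, 7.47, 11.6 and 8.10 CPM in RAMs. MAM 2 lay just below RAM 1, so the groups did not overlap in CPM, by a narrow margin. In FPKM the groups overlapped, with MAM 2 at 1.66 above RAM 1 at 1.57 and RAM 3 at 1.55. Counts were as low as 26 in a MAM library. Idi1 fell by 1.79 on the log2 scale (SE 0.543, adjusted p = 0.0109). It also passed the filter in RAMs only, and 21.9% of its windows occur in other genes. Without Acat2 and Idi1, 11 of the 17 remaining synthesis genes were called lower, and without the 6 synthesis genes that share over 5% of their windows with another gene, 8 of 13 were.

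Mvd, the mevalonate diphosphate decarboxylase, fell by 1.47 on the log2 scale (adjusted p = 8.04e-06), with 18.9 ± 5.32 CPM in MAMs and 52.4 ± 6.10 in RAMs (mean ± SD, n = 5 each). Fdps, which makes farnesyl diphosphate, fell by 1.26 (adjusted p = 0.0183), at 2.21 ± 1.10 and 5.31 ± 1.48 CPM. Fdps shares 21.4% of its windows with other genes, chiefly the overlapping gene model Gm43738. Neither gene overlapped between groups in CPM. For Fdps the margin was narrow, at 3.56 CPM in MAM 2 and 3.67 CPM in RAM 5. In FPKM its groups overlapped, with MAM 2 at 1.79 above RAM 1 at 1.61 and RAM 5 at 1.78.

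The remaining 3 genes of these steps did not pass the test. The kinase gene Pmvk had 27.5, 25.7, 11.3, 14.2 and 13 CPM in MAM libraries 1 to 5 and 27.6, 28.3, 24.2, 25.4 and 22.6 CPM in RAM libraries 1 to 5. MAM 1 and MAM 2 were within the range of RAMs, and MAM 3, MAM 4 and MAM 5 were below it. The log2 fold change was -0.48 (95% interval -1.03 to 0.07, adjusted p = 0.1001). Without MAM 1 it was -0.67 and without MAM 2 -0.63, and in both cases it passed. Mvk, the mevalonate kinase, had a log2 fold change of -0.45 (95% interval -1.26 to 0.37, adjusted p = 0.303).

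Ggps1 makes geranylgeranyl diphosphate, an isoprenoid attached to proteins, and does not lead to sterols. It had 55.6, 40.9, 30.1, 40.4 and 42.0 CPM in MAMs and 34.2, 38.9, 41.6, 36.6 and 47.3 CPM in RAMs. These ranges overlapped. The log2 fold change was 0.07 (95% interval -0.28 to 0.43, adjusted p = 0.707), which turned to -0.09 under upper-quartile normalization and to -0.05 without MAM 1. Within a library, the count ratio of Ggps1 to Fdft1, the squalene synthase gene at the entry to sterols, was 2.22 to 5.12 in MAMs and 0.925 to 1.51 in RAMs. This log2 ratio was higher in MAMs by 1.41, with no overlap of 5 against 5 libraries (two-sided exact permutation test, p = 0.00794, the lowest value 5 against 5 libraries can give, and 0.00992 adjusted over 5 ratios).

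**Figure D2:**
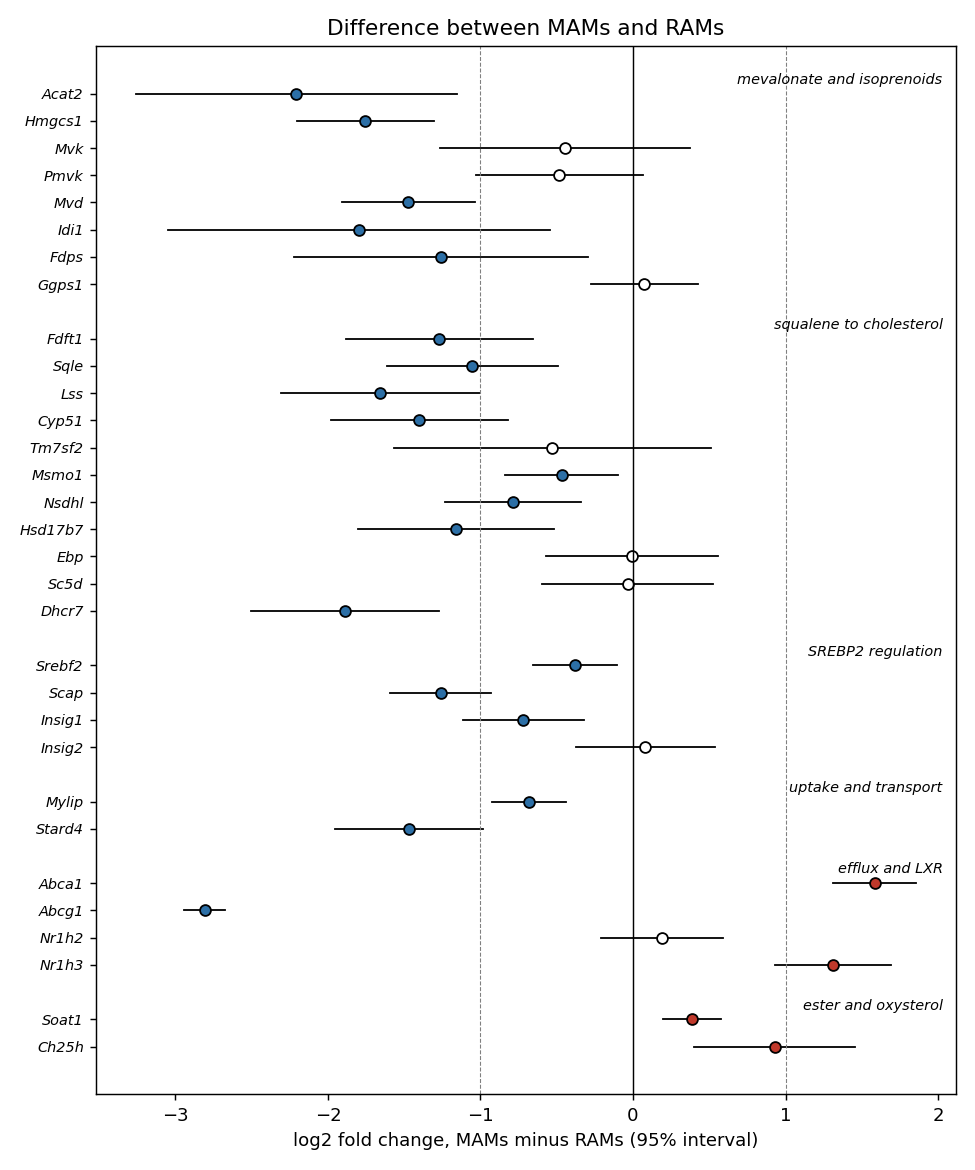
Log2 fold change of each of the 31 genes, MAMs minus RAMs, with its 95% interval from edgeR's quasi-likelihood fit on 5 against 5 libraries. Filled points passed an adjusted p of 0.05 and open points did not, and dashed lines mark a 2-fold change. Among synthesis genes the filled points all lie below 0, down to Acat2 at -2.21.

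The squalene to cholesterol steps held 11 genes, of which 8 were called lower and 6 had a fold change over 2. The same shares over all genes tested were 27.3% and 15.1%. All 11 fold changes were below 0, although those of Ebp and Sc5d were near 0 and changed sign under other settings. The median was -1.05. Dhcr7, the reductase of the last step (chr7:143823145-143848410, plus strand), had 23.8, 7.82, 8.36, 13.7 and 17.2 CPM in MAM libraries 1 to 5 and 43.1, 51.4, 59.6, 63.0 and 45.7 CPM in RAM libraries 1 to 5. The highest MAM library was well below the lowest RAM library. Dhcr7 fell by 1.89 on the log2 scale (SE 0.268, adjusted p = 2.30e-05).

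Lss, which closes squalene epoxide into the lanosterol ring (chr10:76531588-76557138, plus strand), had 15.3, 8.06, 7.31, 6.01 and 5.66 CPM in MAMs and 21.2, 26.3, 39.6, 25.7 and 20.5 CPM in RAMs. The groups did not overlap, and MAM 1 was nearest to the RAM libraries. Lss fell by 1.66 on the log2 scale (SE 0.284, adjusted p = 1.40e-04). Cyp51, the lanosterol demethylase (chr5:4081145-4104746, minus strand), had 56.4, 34.7, 28.0, 20.1 and 41.9 CPM in MAMs and 65.5, 86.6, 107, 139.7 and 79.1 CPM in RAMs. Here too MAM 1 was the highest MAM library, and it remained below RAM 1, the lowest of the RAMs. Cyp51 fell by 1.40 on the log2 scale (SE 0.251, adjusted p = 2.14e-04).

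Fdft1, squalene synthase, fell by 1.27 (adjusted p = 8.29e-04), and Sqle, squalene epoxidase and a controlled step of the pathway, fell by 1.05 (adjusted p = 0.00175). Fdft1 overlaps the cathepsin gene Ctsb on the other strand, and shares 18.4% of its windows with Ctsb and a further gene. Hsd17b7, a sterol ketoreductase, fell by 1.16 (adjusted p = 0.00242) with overlapping groups, and Nsdhl, a sterol dehydrogenase, fell by 0.79 (adjusted p = 0.00273) without overlap.

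Msmo1, the methylsterol oxidase that acts after Cyp51, had 34.0, 26.0, 21.6, 26.9 and 27.7 CPM in MAM libraries 1 to 5 and 29.5, 41.3, 42.8, 44.6 and 30.1 CPM in RAM libraries 1 to 5. RAM 1 and RAM 5 lay below MAM 1, so the groups overlapped. Msmo1 fell by 0.47 on the log2 scale (SE 0.161, adjusted p = 0.0225), and it did not pass without MAM 3 (-0.39), RAM 3 (-0.42) or RAM 4 (-0.40), nor under the replicate block (-0.46).

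Tm7sf2, Ebp and Sc5d did not pass the test. Tm7sf2, a sterol reductase, had a log2 fold change of -0.53 with a 95% interval of -1.56 to 0.51, and it shares 7.92% of its windows with Vps51. Ebp, the sterol isomerase, had 15.8, 21.4, 13.5, 11.9 and 28.7 CPM in MAMs and 20.2, 15.9, 24.3, 17.7 and 13.7 CPM in RAMs, and the groups overlapped fully in the middle of their ranges. Its log2 fold change was -0.01 (95% interval -0.57 to 0.56). Sc5d, the desaturase that acts between Ebp and Dhcr7, had 19.4, 12.6, 10.6, 10.7 and 10.8 CPM in MAMs and 9.18, 10.3, 17.0, 16.1 and 13.1 CPM in RAMs. These ranges also overlapped, and its log2 fold change was -0.04 (95% interval -0.60 to 0.53). The sign of both changed with the library left out and with the scale, so no direction is given for either.

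**Figure D3:**
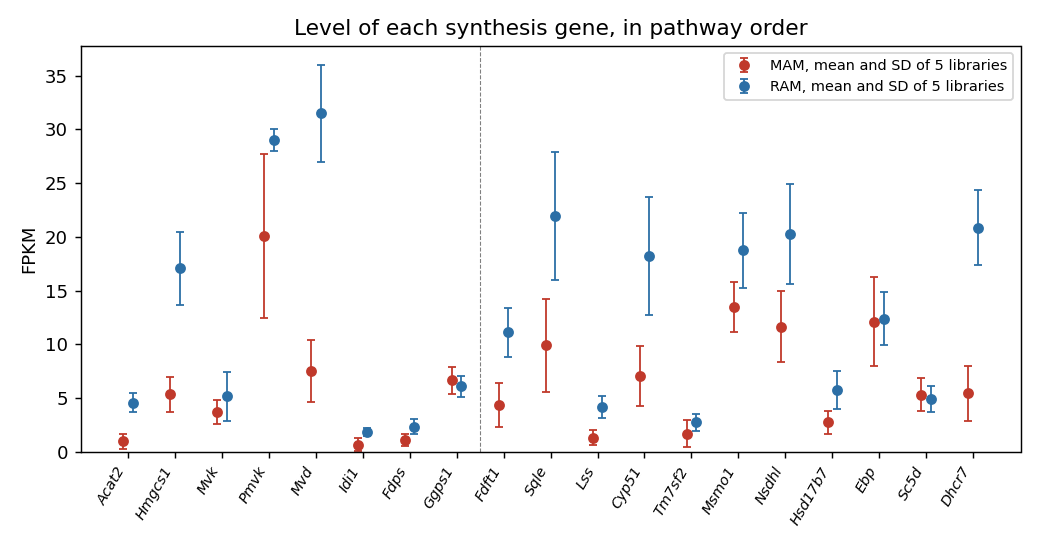
Level of the 19 synthesis genes in FPKM, in the order of the pathway, as mean and SD of 5 libraries in each group. The dashed line separates the mevalonate steps from the squalene to cholesterol steps. Mvd was the most abundant in RAMs at 31.5 FPKM and Pmvk in MAMs at 20.1 FPKM, while Ggps1, Ebp and Sc5d had nearly the same mean in both groups.

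The synthesis genes were also ordered by their level per length. In RAMs the highest mean FPKM was that of Mvd at 31.5 ± 4.48, followed by Pmvk at 29.1 ± 1.03, which lay within the spread of Mvd, and Sqle at 21.9 ± 6.00. In MAMs it was Pmvk at 20.1 ± 7.63, followed by Msmo1 at 13.4 ± 2.35 and Ebp at 12.1 ± 4.14, with overlapping spreads. The lowest mean level in both groups was that of Idi1, at 0.654 ± 0.635 FPKM in MAMs and 1.83 ± 0.354 in RAMs.

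The level of the synthesis genes varied among the libraries of each group. The mean log2 CPM over the 19 genes was 3.95, 3.59, 3.21, 3.04 and 3.52 in MAM libraries 1 to 5 and 4.33, 4.64, 4.70, 4.76 and 4.40 in RAM libraries 1 to 5. MAM 1 had the highest value of its group in 12 of the 19 genes and MAM 4 the lowest in 9. Among RAMs, RAM 1 was the lowest in 11 and RAM 4 the highest in 7. The coefficient of variation of the CPM among MAMs was highest for Idi1 at 89.7% and Acat2 at 81.5%, both at low counts.

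Markers of cell types moved with the groups and within them. The 7 alveolar macrophage markers summed to 196 to 369 FPKM in MAMs and 6530 to 8662 in RAMs, led by Marco in MAMs and Chil3 in RAMs, and 6 of the 7 were called lower in MAMs, Marco being the exception. The sums in MAMs were highest in MAM 1 and lowest in MAM 4, the libraries with the highest and lowest synthesis means. In RAMs they were highest in RAM 4 and lowest in RAM 5. The order in MAMs came from Marco, at 216 FPKM in MAM 1 and 49.1 FPKM in MAM 4. No other marker of the 7 was both highest in MAM 1 and lowest in MAM 4. Pparg and Fabp4 were highest in MAM 4 and Siglecf and Chil3 in MAM 2, while Itgax was also highest in MAM 1. All 7 proliferation markers, led by Mki67, were called lower in MAMs and summed to 26.5 to 37.8 FPKM against 116 to 164 in RAMs, with Ccnb1 passing the filter in RAMs only. The 6 markers of recruited macrophages and monocytes, led by Itgam in MAMs and Fcgr1 in RAMs, were all called higher in MAMs, at 2451 to 2840 FPKM against 43.7 to 54.4, with Cx3cr1 and Ly6c2 passing the filter in MAMs only. Among these markers, Itgam and Itgax encode CD11B and CD11C, on which the cells were sorted.

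Of the other lists, epithelial and tumor markers summed to 7.21 to 21.4 FPKM in MAMs and 546 to 673 in RAMs, led by Krt19 in both groups, and Krt19 and Cdh1 were called lower, as was Epcam, which passed the filter in RAMs only. Krt18, which passed in MAMs only and was not called, reached 7.92 FPKM in MAM 1 and at most 0.435 FPKM in RAMs. Krt8, which was not tested, stood at 0.332 to 1.87 FPKM in MAMs and at most 0.127 FPKM in RAMs, with 0 counts in 3 RAM libraries. The epithelial and tumor markers therefore did not move together, and which cells carried them was not tested. Lung epithelium markers summed to 1.03 to 20.1 FPKM against 49.7 to 87.6, led by Sftpc in MAMs and Scgb1a1 in RAMs, and both were called lower, as was Sftpb, which passed the filter in RAMs only. Neutrophil markers summed to 14.8 to 59.8 against 6.35 to 11.4 FPKM, led by S100a8, and both genes tested were called higher, while Ly6g was at 0 counts in 2 MAM and 5 RAM libraries. Stromal and endothelial markers, led by Pecam1 in MAMs and Cdh5 in RAMs, summed to 6.45 to 12.3 against 0.574 to 3.95 FPKM. Col1a1, Pecam1 and Cdh5 were tested and called higher, but each passed the filter through MAMs only, which favoured that direction, and their libraries overlapped between groups. Dendritic cell markers stayed at or below 4.69 FPKM in sum, led by Ccr7 in MAMs and Zbtb46 in RAMs, with Flt3 at 0 counts in 4 MAM and 3 RAM libraries, and Ccr7 was the one gene tested. Its call as higher was favoured in the same way, since it passed the filter through MAMs only, and its libraries overlapped. Lymphocyte markers, led by Cd79a, stayed at or below 9.84 FPKM and neither of those tested was called. The part of any of these lists in the differences of the synthesis, regulator, transport, efflux and ester genes was not tested.

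The regulators of SREBP2 were lower in MAMs except for Insig2. Of these 4 genes, 3 were called lower and 1 of them by more than 2-fold, against 27.3% and 15.1% of all genes tested. Scap, the escort of SREBP2 (chr9:110333288-110384950, plus strand), had 30.8, 44.1, 29.3, 29.4 and 25.2 CPM in MAM libraries 1 to 5 and 83.0, 84.8, 73.6, 66.2 and 73.0 CPM in RAM libraries 1 to 5. The groups did not overlap, and MAM 2 was the highest of its group. Scap fell by 1.26 on the log2 scale (SE 0.144, adjusted p = 2.25e-06), and the gene model 5830462I19Rik on the other strand shares 6.59% of its windows.

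Insig1, itself a known target of SREBP2 (chr5:28071363-28078662, plus strand), had 56.9, 45.3, 36.3, 33.5 and 37.7 CPM in MAMs and 50.6, 76.5, 80.0, 82.4 and 55.9 CPM in RAMs. MAM 1 was above RAM 1 and RAM 5, so the groups overlapped. Insig1 fell by 0.72 on the log2 scale (SE 0.171, adjusted p = 0.00222). Srebf2, which encodes SREBP2 (chr15:82147181-82205379, plus strand), had 83.7, 87.3, 80.8, 56.6 and 77.9 CPM in MAMs and 90.3, 95.9, 100.4, 119.6 and 97.0 CPM in RAMs. The groups did not overlap in CPM, although MAM 2 was close to RAM 1. In FPKM they did overlap, with MAM 2 at 21.3 above RAM 1 at 20.7. Srebf2 fell by 0.38 on the log2 scale (SE 0.120, adjusted p = 0.0135), the smallest in size of the genes called.

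Insig2, the second INSIG gene, had 18.1, 27.2, 20.8, 26.7 and 22.7 CPM in MAMs and 16.4, 22.4, 32.5, 18.6 and 19.3 CPM in RAMs. The groups overlapped, with RAM 3 the highest of all. The log2 fold change was 0.08 (95% interval -0.37 to 0.53, adjusted p = 0.749), which turned to -0.08 under upper-quartile normalization and to -0.01 without RAM 1. The count ratio of Insig1 to Insig2 within a library was 1.25 to 3.15 in MAMs and 2.46 to 4.44 in RAMs, a log2 difference of -0.82 (two-sided exact permutation test, p = 0.0317, also 0.0317 adjusted over 5 ratios). Without MAM 2, MAM 3, MAM 4 or MAM 5 the adjusted p was 0.0556, with differences of -0.80, -0.81, -0.69 and -0.80.

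Both genes of uptake and transport were called lower in MAMs and 1 of them by more than 2-fold, against 27.3% and 15.1% of all genes tested. Neither overlapped between groups, where 21.2% of all genes tested were lower without overlap. Mylip, a ubiquitin ligase that sends lipoprotein receptors to degradation and is known as an LXR target (chr13:45389742-45412022, plus strand), had 46.0, 47.0, 56.2, 52.6 and 49.3 CPM in MAM libraries 1 to 5 and 79.7, 80.5, 66.9, 92.2 and 83.2 CPM in RAM libraries 1 to 5. All MAM libraries were below all RAM libraries. Mylip fell by 0.68 on the log2 scale (SE 0.105, adjusted p = 4.98e-05). No receptor that takes up lipoproteins is among the 31 genes.

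Stard4, a soluble carrier of cholesterol between membranes and a known SREBP2 target (chr18:33199355-33213862, minus strand), had 18.6, 14.4, 16.1, 12.2 and 19.1 CPM in MAMs and 24.4, 41.2, 57.4, 52.9 and 46.7 CPM in RAMs. The groups did not overlap, and RAM 1 was the lowest of the RAMs, as it was in 11 of the 19 synthesis genes. Stard4 fell by 1.47 on the log2 scale (SE 0.212, adjusted p = 2.65e-05).

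The efflux group split, with Abca1 higher and Abcg1 lower in MAMs. Of its 4 genes, 2 were called higher and 1 lower, all 3 by more than 2-fold and without overlap. Of all genes tested, 15.3% were higher by that criterion and 15.1% lower. Without overlap, 23.7% of all genes tested were higher and 21.2% lower. Abca1, which hands cholesterol and phospholipid to lipid-poor apolipoproteins (chr4:53030787-53159895, minus strand), had 793, 922, 1032, 1255 and 1021 CPM in MAM libraries 1 to 5 and 334, 278, 399, 314 and 349.7 CPM in RAM libraries 1 to 5. Every MAM library was above every RAM library. Abca1 rose by 1.58 on the log2 scale (SE 0.119, adjusted p = 2.07e-08).

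Abcg1, which exports cholesterol to mature HDL particles and is needed for lipid clearance by alveolar macrophages (chr17:31057675-31117988, plus strand), had 457, 433, 475, 454 and 459 CPM in MAM libraries 1 to 5 and 3103, 3330.4, 3251, 3062 and 3211 CPM in RAM libraries 1 to 5. The libraries of each group were close together, with a coefficient of variation of 3.30% in MAMs and 3.42% in RAMs, and far from the other group. Abcg1 fell by 2.81 on the log2 scale (SE 0.0584, adjusted p = 9.08e-15), the largest difference among the 31 genes on either side. Per length, Abcg1 had 565 ± 21.8 FPKM in RAMs, the highest level of the 31 genes in that group, and 79.6 ± 2.56 FPKM in MAMs, within the spread of Abca1 in MAMs at 81.0 ± 14.2 FPKM.

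The balance of the transporters therefore differed more than either gene. The count ratio of Abca1 to Abcg1 was 1.74 to 2.76 in the MAM libraries and 0.0835 to 0.123 in the RAM libraries. On the log2 scale the ratio was higher in MAMs by 4.39 (two-sided exact permutation test, p = 0.00794, and 0.00992 adjusted over 5 ratios). Abca1 and Abcg1 moved in opposite directions without overlap, so this p was fixed by the results of the separate genes and adds no evidence to them. In FPKM, which allows for the length of each transcript, the ratio was 0.824 to 1.29 in MAMs and 0.0376 to 0.0557 in RAMs.

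The LXR receptors also differed from each other. Nr1h3, which encodes LXR alpha (chr2:91184061-91202834, minus strand), had 62.4, 67.7, 83.0, 83.1 and 48.9 CPM in MAM libraries 1 to 5 and 27.3, 34.1, 20.6, 29.9 and 26.9 CPM in RAM libraries 1 to 5. The groups did not overlap. Nr1h3 rose by 1.31 on the log2 scale (SE 0.165, adjusted p = 6.40e-06). Nr1h2, which encodes LXR beta, had 47.9 ± 5.98 CPM in MAMs and 42.0 ± 11.9 CPM in RAMs (SD, n = 5), with overlapping groups, and its log2 fold change was 0.19 (95% interval -0.21 to 0.59, adjusted p = 0.368). The count ratio of Nr1h3 to Nr1h2 was 1.04 to 1.99 in MAMs and 0.512 to 1.03 in RAMs, a log2 difference of 1.08 (two-sided exact permutation test, p = 0.00794, and 0.00992 adjusted over 5 ratios).

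**Figure D4:**
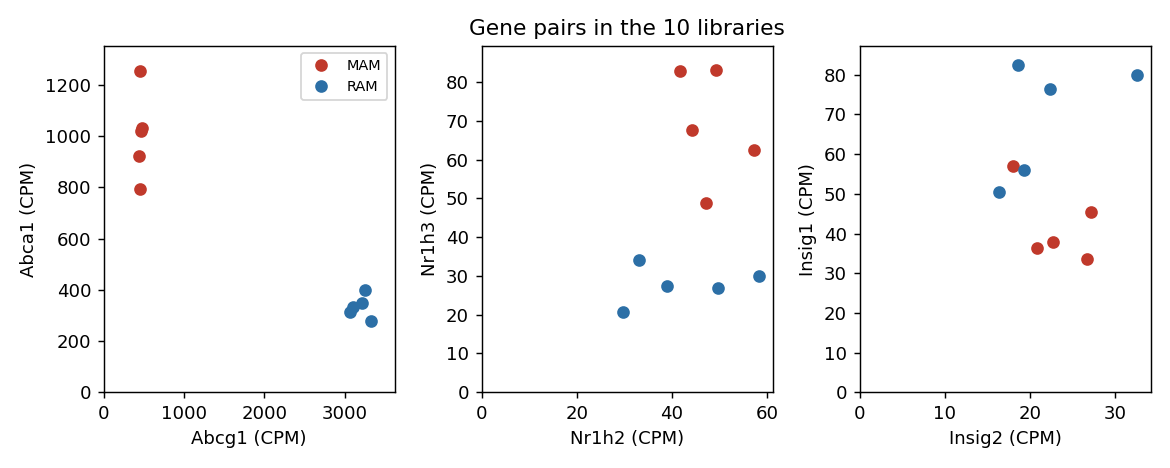
CPM of 3 pairs of genes in the 10 libraries, each point 1 library, with both axes linear from 0. Abca1 and Abcg1 place MAMs at the upper left and RAMs at the lower right, Nr1h3 separates the groups while Nr1h2 does not, and Insig1 and Insig2 overlap on both axes.

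Both genes that store or modify cholesterol were called higher in MAMs, neither by more than 2-fold, where 28.9% of all genes tested were called higher. Neither overlapped between groups in CPM, where 23.7% of all genes tested were higher without overlap. Soat1, which esterifies cholesterol for storage in droplets (chr1:156424525-156474331, minus strand), had 390.2, 387, 394, 407 and 428 CPM in MAM libraries 1 to 5 and 253, 312, 297, 342 and 329 CPM in RAM libraries 1 to 5. MAM libraries were close together and all above the RAM libraries. Soat1 rose by 0.39 on the log2 scale (SE 0.0818, adjusted p = 8.44e-04). Soat1 rose less than Abca1 did. The count ratio of Soat1 to Abca1 was 0.324 to 0.492 in MAMs and 0.745 to 1.12 in RAMs. The log2 difference was -1.18 (two-sided exact permutation test, p = 0.00794, and 0.00992 adjusted over 5 ratios). The separate CPM ranges of Soat1 and Abca1 left no room for these ratios to overlap. This p was therefore fixed by the results of the separate genes and adds no evidence to them.

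Ch25h makes an oxysterol that holds back SREBP2 and is known as an interferon-induced gene (chr19:34473778-34475164, minus strand). It had 33.3, 32.2, 25.9, 23.3 and 23.7 CPM in MAMs and 13, 8.68, 13.5, 23.2 and 14.3 CPM in RAMs. MAM 4, the lowest of its group, and RAM 4, the highest of its group, were almost equal, and the groups met there without overlap in CPM. In FPKM they overlapped, with RAM 4 at 20.9 above MAM 4 at 20.7. Ch25h rose by 0.93 on the log2 scale (SE 0.229, adjusted p = 0.00278). A gene model on the other strand, Gm26902, shares 4.66% of its windows.

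Over all 31 genes, 19 were called lower and 4 higher, where 27.3% and 28.9% of all genes tested were called in these directions. The other 8 were not called, and 20 of the 31 did not overlap between groups in CPM, against 44.9% of all genes tested. Idi1, Fdps, Srebf2 and Ch25h, which are among the 20, overlapped in FPKM. The median log2 fold change was -0.72. The 4 called higher were Abca1, Nr1h3, Soat1 and Ch25h, all outside the synthesis steps.

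Further genes of the pathway were examined as 5 lists with 53 genes, of which 49 were tested, 19 called higher and 14 lower. Over all genes tested, 28.9% were called higher and 27.3% lower, so the count called lower was near that share. The lists hold 5 to 12 tested genes each, and their counts are given as descriptions to be read against those shares. Of 10 genes whose products use isoprenoids, 4 were called higher and 1 lower, with a median log2 fold change of 0.21. Nus1 and Dhdds encode the pair of subunits that make dolichol precursors, and they moved in opposite directions. Nus1 averaged 289 ± 44.1 CPM in MAMs against 166 ± 20.4 in RAMs (SD, n = 5) and rose by 0.80 on the log2 scale (SE 0.112, adjusted p = 2.05e-05). Dhdds averaged 25.6 ± 2.95 against 60.6 ± 8.99 CPM and fell by 1.24 on the log2 scale (SE 0.131, adjusted p = 9.66e-07). Pggt1b, a subunit of the geranylgeranyl transferase, had a log2 fold change of 0.78 (adjusted p = 1.04e-04).

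Among 11 genes of SREBP processing and sterol-regulated degradation, 6 were called higher and 1 lower, with a median log2 fold change of 0.33, where 28.9% and 27.3% of all genes tested were called in these directions. Rnf145, a ubiquitin ligase of this machinery and a known LXR target, averaged 107 ± 6.41 CPM in MAMs against 32.7 ± 3.99 in RAMs and rose by 1.71 on the log2 scale (SE 0.104, adjusted p = 1.75e-09). Aup1 was at 0.89 (adjusted p = 2.70e-06) and Erlin1 at 0.78 (adjusted p = 4.07e-05), both parts of degradation complexes at the endoplasmic reticulum. Of 14 sterol transport genes, 11 were tested, 3 were called higher and 2 lower, both below the shares over all genes. Gramd1b, which moves cholesterol from the plasma membrane to the endoplasmic reticulum, rose by 1.98 on the log2 scale (SE 0.133, adjusted p = 5.38e-09). The oxysterol-binding protein genes Osbpl8 and Osbpl3 were at 1.85 (adjusted p = 1.25e-09) and -1.92 (adjusted p = 5.69e-06).

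In the list of oxysterol and ester handling, 5 of 6 genes were tested, 2 called higher and 3 lower. Soat2, the second cholesterol esterifying enzyme, passed the filter in MAMs only, at 8.59 ± 4.44 CPM in MAMs and 0.879 ± 1.04 in RAMs, and had a log2 fold change of 3.28 (adjusted p = 0.00367). Hsd3b7, a bile acid synthesis enzyme that acts on oxysterols, averaged 28.5 ± 6.04 CPM in MAMs against 185 ± 19.4 in RAMs and fell by 2.70 on the log2 scale (SE 0.139, adjusted p = 2.62e-10). The sterol sulfotransferase gene Sult2b1 had a log2 fold change of -1.73 (adjusted p = 0.0179) at under 2 CPM in both groups. It passed the filter in RAMs only, and lost its call with no filter (adjusted p = 0.0635), without RAM 2 (adjusted p = 0.0564) and under the replicate block (adjusted p = 0.085).

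Of the 12 LXR partners and LXR-responsive genes, 4 were called higher, close to the 28.9% of all genes tested, and 7 lower, against 27.3%. Their median log2 fold change was -0.59. Cd5l, a secreted macrophage protein, averaged 209 ± 35.2 CPM in MAMs against 1.73 ± 0.0959 in RAMs and rose by 6.92 on the log2 scale (SE 0.141, adjusted p = 8.09e-15). It passed the filter in MAMs only. Arl4c, a small GTPase, was at 3.16 (adjusted p = 3.96e-11) and Pltp, the phospholipid transfer protein, at 1.72 (adjusted p = 1.45e-07). Rxra, the partner of both LXR receptors, is given although its values were seen before it was chosen. It averaged 182 ± 13.6 CPM in MAMs against 508 ± 24.1 in RAMs and fell by 1.49 on the log2 scale (SE 0.0724, adjusted p = 1.35e-10), opposite in sign to Nr1h3.

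**Figure D5:**
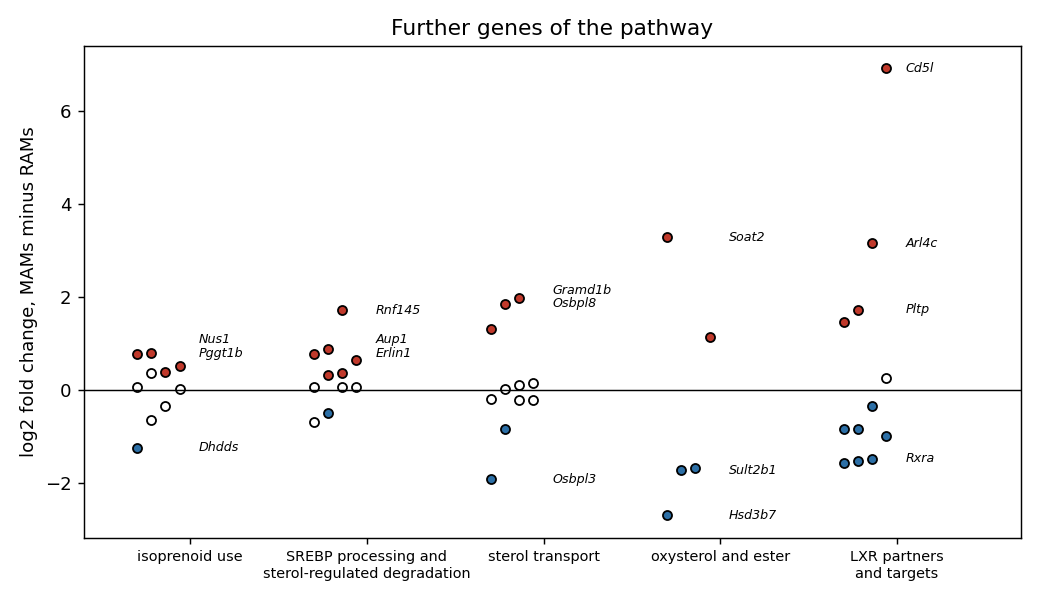
Log2 fold change, MAMs minus RAMs, of the tested genes of 5 further lists, 1 point per gene. Filled points passed an adjusted p of 0.05 and open points did not, and the named points are the 3 largest called changes of each list with Rxra added. Cd5l stands at 6.92 and Hsd3b7 at -2.70.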

How the data were processed

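RNA was sequenced from 5 MAM and 5 RAM libraries, made with the Ovation RNA-Seq System V2 kit. The authors aligned reads to GRCm38 with TopHat2 2.0.13, used HTSeq 0.6.1 to count reads with a unique position on UCSC RefGene models, and deposited the counts without normalization in 1 file for each library. A table of FPKM from Cufflinks 2.2.1 was also deposited by the authors. These versions, and DESeq2 1.6.3 for the authors' own test, are in the submitters' processing notes. The strand setting and the handling of mates are not given in the sources used here, so reads of genes that overlap on opposite strands cannot be told apart. Lines that name no gene held 56.5% ± 1.65 of each MAM file and 63.2% ± 0.898 of each RAM file (SD, n = 5) and were left out. No replicate files were identical. Reads carried no molecular identifiers, and a count of 0 allows up to 3 counts, a limit for counting error only.

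Genes that had 1 count or more and reached a mean of 1 FPKM in MAMs or RAMs were tested with edgeR 4.0.16 in R 4.3.3 (TMM, quasi-likelihood test, no covariates, Benjamini-Hochberg adjustment over 11571 genes). Standard errors were taken from the fold change and its F statistic. Ratios of counts within a library were compared by exact permutation over 252 splits. Members and lists were chosen with earlier results of these data known. Library-level values were given for the 3 largest changes of each role group, or all of a smaller group, and for members whose call or direction varied. From further lists the 3 largest called changes were named, and from marker lists the most abundant gene of each group. Of the wider table, only these genes are printed.

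Positions and windows of 100 bases came from GENCODE M21 on GRCm38, and promoters from RefSeq on GRCm38.p6. Alternatives were RLE and upper-quartile scaling, DESeq2 1.42.0, no filter, edgeR's filterByExpr, a replicate block, limma 3.58.1 on log2(FPKM + 1) and log2(FPKM + 0.1), each library left out, FPKM in place of counts for ratios, and a shorter promoter window. Leaving out members that passed the filter in RAMs only or shared over 5% of windows, and tested genes as promoter background, were chosen after seeing the data. In data simulated for MAMs against RAMs, with 200 of 11568 genes changed, edgeR recovered 66.3% of 2-fold and 93.3% of 4-fold changes with 2 false calls. In the real data 56.2% of genes were called, far more than were changed here. The simulated recovery and false calls therefore do not carry over to the real comparison. Python 3.11.15 and matplotlib 3.10.9 were used for figures.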

Additional observations from a re-analysis of the deposited data

Results flagged for a closer look

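In 2 of 62 groups of 5 libraries, 1 library stood apart from the other 4 by Dixon's criterion for log2 CPM (a gap of over 0.71 of the group's range), and chance gives about 1 in 20 such groups. Nsdhl was high in RAM 4, at 65.4 CPM against 42.6 CPM in the next library, a gap of 0.961 of the range. Srebf2 was low in MAM 4, at 56.6 CPM against 77.9 CPM in the next library, a gap of 0.739 of the range.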

How the results depend on the processing

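Of the 31 genes, 25 kept their call and direction under all 18 alternatives run across genes, as did 15 of the 16 further genes named, Sult2b1 being the exception. The 13 synthesis genes called lower became 12 to 14 with a library left out, and the 11 with a fold change over 2 became 9 to 11. Counts for the 13 synthesis genes that share few windows with other genes were 8 called lower and 6 with a fold change over 2, since fewer genes enter them. The median synthesis log2 fold change was -0.84 with limma on log2(FPKM + 1), a scale that shrinks low genes. Upper-quartile scaling moved the median of all genes to -0.18.

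Among the genes named, directions changed only for 4 without a call. Ggps1 was at -0.0933 and Insig2 at -0.0837 under upper-quartile scaling. Ebp was at 5.88e-04 with RLE, 4.76e-04 with DESeq2, 0.0133 with no filter and 0.0127 with filterByExpr. Sc5d was at 0.0995 and 0.12 with limma on log2(FPKM + 1) and log2(FPKM + 0.1). With a library left out, Ggps1 ran from -0.0506 to 0.17, Insig2 from -0.00987 to 0.26, Ebp from -0.23 to 0.11 and Sc5d from -0.23 to 0.0675. Pmvk was called under upper-quartile scaling, both limma fits and without MAM 1 or MAM 2. The log2 difference of the Insig1 to Insig2 ratio ran from -1.03 to -0.69 with a library left out. In the window from 100 bases before the start, 14 of 16 synthesis promoters held CCAAT (87.5%, against 29.3% of tested genes with a promoter), 8 the Sp1 box (50% against 58.6%, below the background where the longer window was above it) and none the sterol core (0.732% of those tested).

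Same-numbered MAM and RAM libraries did not deviate together (correlations -0.0366 to 0.0294, and 3 of 10 libraries correlated best with their own number). These correlations cannot show whether same-numbered libraries were handled together. With the replicate number as a block, 13 synthesis genes were called lower, 11 of them by more than 2-fold, and the median was -1.18. Pmvk gained its call (-0.57) and Msmo1 lost it (-0.46), as did Sult2b1 (-1.56). Low counts limit Acat2, Idi1, Fdps and Tm7sf2 most.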
